A study of Homo sapiens with 12 samples.

Results

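Glycolysis and the response to low oxygen were followed in a Müller glia cell model of myotonic dystrophy type 1, through 33 genes listed for these roles. They comprise sugar and lactate carriers, the enzymes of glycolysis with lactate dehydrogenase, regulators of glycolytic flux, target genes of the hypoxia-inducible factors (HIF) and HIF1A itself. A gene was measured by the probe set that carries its symbol alone and, where several did, by the brightest of them over the 12 arrays. This gave values for 29 of the 33 genes, out of 33616 symbols on the arrays, and 18 of the 29 passed the threshold in no comparison. In the probe annotation used here SLC16A1, SLC16A3 and CA9 had no probe set of their own, and that of PFKFB4 carried 2 symbols, so these 4 genes were not analysed here.

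Glycolysis splits glucose into pyruvate, which is either reduced to lactate or carried into mitochondria, where the pyruvate dehydrogenase complex turns it into acetyl-CoA. Müller cells, the main glia of the retina, are known for a high rate of glycolysis and for passing lactate to neurons. When oxygen is short, prolyl hydroxylases of the EGLN family stop marking the alpha subunits of HIF for degradation, and HIF then induces glucose transporters, glycolytic enzymes, a kinase that inhibits the pyruvate dehydrogenase complex, and some of its own inhibitors, EGLN3 among them. This control acts mainly on HIF protein, whereas the arrays measured RNA.

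MIO-M1 is a human Müller glia line. A clone of it with a Tet-On transactivator under the CMV promoter received a DMPK minigene behind a doxycycline-responsive promoter, either with 648 CTG repeats, MIO-M1-CTG(648), or with 0 repeats, MIO-M1-CTG(0). Both lines were selected with G418 and puromycin and kept in tetracycline-free serum, and both were analysed Dox-induced (1 μg/mL doxycycline for 8 days) and non-induced. The 4 groups, with 3 biological replicates each, were Dox-induced MIO-M1-CTG(648), non-induced MIO-M1-CTG(648), Dox-induced MIO-M1-CTG(0) and non-induced MIO-M1-CTG(0) cultures, each hybridized to Clariom D Human arrays. Each repeat length is 1 line, so its repeat length cannot be told apart from its other properties, such as where the minigene inserted, and p-values measure only the spread between these samples. In such bulk RNA a higher signal in every cell and a change in the mix of cells cannot be told apart.

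The deposited values are log2 signals. Array medians lay between 4.24 and 4.32, and from 52.1% to 53.3% of the 36176 probe sets with 1 symbol reached a signal of 5 on an array, taken here as the upper end of the low range. Of the 29 members 27 reached that signal as a group mean, ENO2 and ANKRD37 being the exceptions. The lines stood apart more than the treatments: correlations over those probe sets were 0.992 to 0.994 within a group, 0.991 to 0.993 between the groups of 1 line and 0.984 to 0.986 between lines. The DMPK probe set read 9.78, 9.82 and 9.55 in Dox-induced and 10.32, 10.00 and 10.24 in non-induced MIO-M1-CTG(648) cultures, against 8.50, 8.63 and 8.49 in Dox-induced and 7.90, 7.73 and 8.22 in non-induced MIO-M1-CTG(0) cultures. It was thus below its non-induced level in the Dox-induced MIO-M1-CTG(648) arrays. The probe set does not separate minigene RNA from the DMPK transcripts of the cells, and which exons its probes cover is not given in the sources used here, so it does not check the induction. The study assayed minigene RNA by RT-PCR, data not analysed here, and directions with Dox are given as the sample labels have them. Of the defining Müller glia genes GLUL, VIM, SOX9 and EGFR had group means between 9.60 and 17.7, whereas RLBP1, the retinaldehyde-binding protein of Müller cells, lay between 2.70 and 2.89.

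A gene was called past the threshold at a log2 fold change over 0.5 in size with an unadjusted p under 0.005 in limma, fitted to the 4 groups together. The adjusted p-values are Benjamini-Hochberg values from that limma fit across 36176 probe sets. Differences are on the log2 scale, and SE is the standard error of a difference.

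HIF binds DNA at a short core element, written here as ACGTG or GCGTG and searched on both strands in the 250 bases before each annotated start (RefSeq, GRCh38.p14). At least 1 match was present in 22 of the 27 members with such a window in the table used, against 12945 of all 27305 genes. A gene with more windows has more chances of a match. By window, 29 of 51 of the members held one (56.9%), against 15172 of 35116 of all genes (43.2%). The windows of the members whose signals separated the lines are shown here for BNIP3 and PGK1, lower in MIO-M1-CTG(648), for PDK3, higher in that line, and for EGLN3, which had the most negative difference of all members. Capitals mark the matches, and a run of CACGTG is a match on both strands. The windows are chr10:131981924-131982173 (minus strand), chrX:78103998-78104247 (plus strand), chrX:24465036-24465285 (plus strand) and chr14:33951075-33951324 (minus strand), each printed 5′ to 3′ in the direction of transcription.
BNIP3: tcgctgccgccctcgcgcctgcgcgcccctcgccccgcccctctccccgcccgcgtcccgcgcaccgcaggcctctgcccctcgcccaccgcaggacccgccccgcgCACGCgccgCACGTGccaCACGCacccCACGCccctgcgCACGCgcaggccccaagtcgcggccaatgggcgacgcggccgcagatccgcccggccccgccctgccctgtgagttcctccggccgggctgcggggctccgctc
PGK1: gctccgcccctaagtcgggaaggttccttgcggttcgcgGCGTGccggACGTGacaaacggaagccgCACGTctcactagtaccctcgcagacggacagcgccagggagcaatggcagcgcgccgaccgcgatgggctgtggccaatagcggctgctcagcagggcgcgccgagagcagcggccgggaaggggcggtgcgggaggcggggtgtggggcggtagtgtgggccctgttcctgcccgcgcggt
PDK3: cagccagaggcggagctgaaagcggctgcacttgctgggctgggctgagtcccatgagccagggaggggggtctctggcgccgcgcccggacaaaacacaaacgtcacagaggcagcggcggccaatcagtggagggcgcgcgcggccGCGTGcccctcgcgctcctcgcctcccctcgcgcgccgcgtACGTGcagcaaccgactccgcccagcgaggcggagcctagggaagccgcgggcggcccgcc
EGLN3: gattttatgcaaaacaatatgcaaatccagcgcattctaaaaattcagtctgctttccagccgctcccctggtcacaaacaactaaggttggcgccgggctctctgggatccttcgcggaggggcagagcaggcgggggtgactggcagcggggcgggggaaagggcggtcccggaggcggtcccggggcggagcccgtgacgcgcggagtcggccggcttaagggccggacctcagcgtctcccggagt
The BNIP3 window held 6 matches, packed between 104 and 143 bases before the start, that of PGK1 held 3 and that of PDK3 held 2, whereas EGLN3 had none in this window. Matches were present in 4 of 6 windows of members lower and in 2 of 3 windows of members higher in non-induced MIO-M1-CTG(648) cultures, and in 23 of 42 windows (54.8%) of the members not past the threshold between non-induced lines. A match is a string of letters and not a measured binding site.

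To see how the lines differed before any induction, non-induced MIO-M1-CTG(648) cultures were compared with non-induced MIO-M1-CTG(0) cultures. Of the 29 members 10 were past the threshold (34.5%), 4 higher and 6 lower, and all 10 had an adjusted p under 0.05. Over all probe sets 11.7% were past it, 5.63% higher and 6.11% lower, 12.5% had such an adjusted p beyond the same fold, and 20.1% were past it among those that reached a mean of 5 in a group. Arrays of the 2 groups did not overlap for 6 members that were higher (20.7%, against 13.2% of all probe sets) and for 9 that were lower (31.0%, against 14.3%). By listed role, the higher members were a glucose transporter, a glycolytic enzyme, a subunit of lactate dehydrogenase and a kinase of the pyruvate dehydrogenase complex. The lower ones were genes listed as other hypoxia-induced genes and enzymes of glycolysis or its control. These roles do not divide the members by HIF control, since HIF also induces glucose transporters and glycolytic enzymes. The median over the 29 members was -0.01, beside 0.00 over all probe sets.

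**Figure D1:**
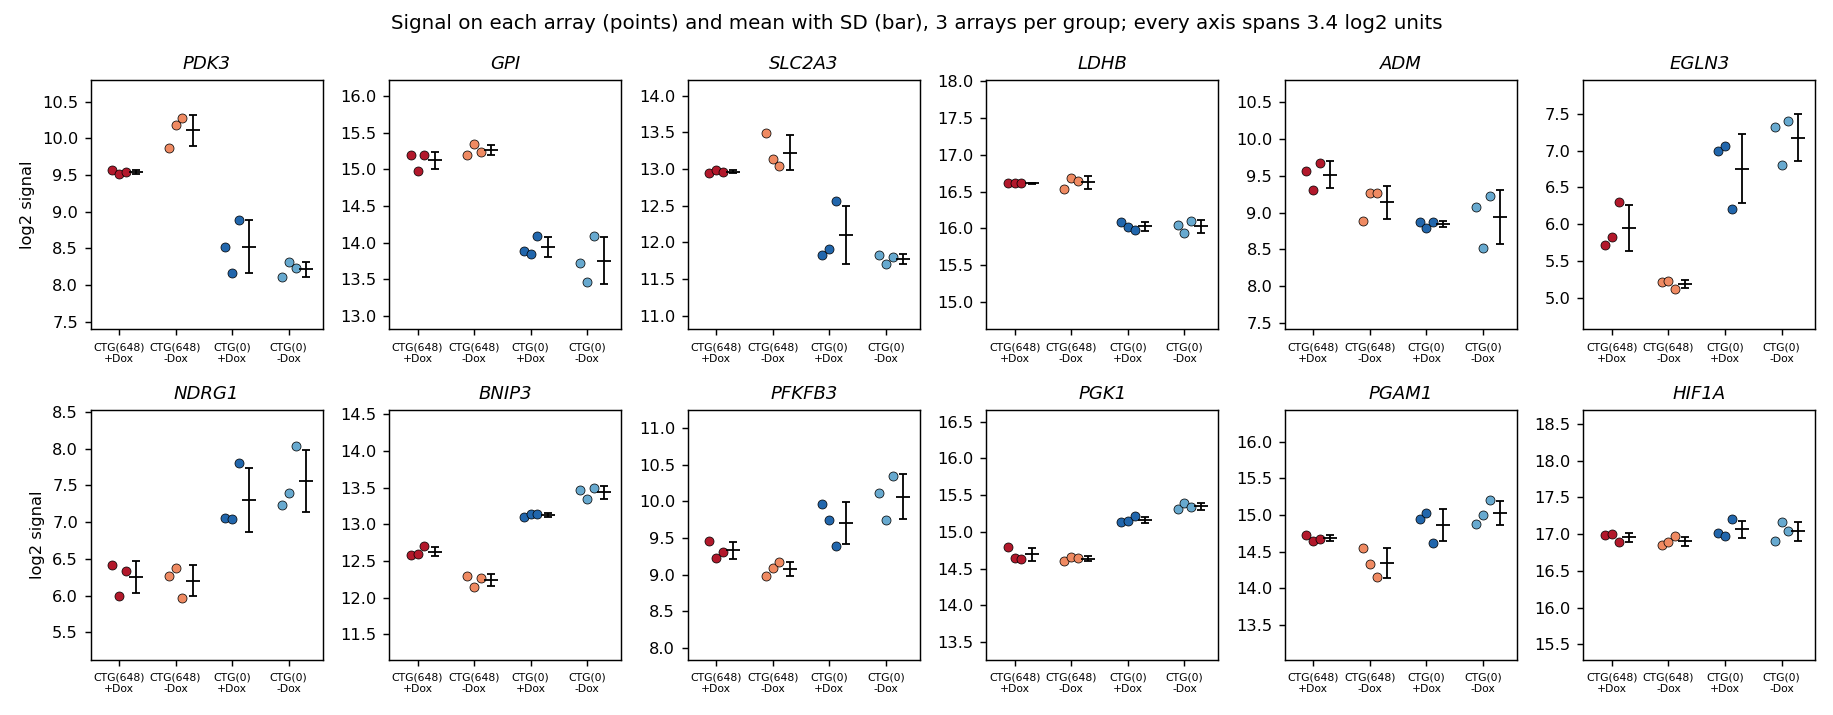
Log2 signal (vertical axes, each spanning 3.4 log2 units) of the 11 members past the threshold in a comparison and of HIF1A on every array, with 3 points per group and the mean with its SD beside them. PDK3, GPI, SLC2A3 and LDHB are higher and EGLN3, NDRG1, BNIP3, PFKFB3, PGK1 and PGAM1 lower in non-induced MIO-M1-CTG(648) than in non-induced MIO-M1-CTG(0) cultures, whereas the HIF1A points of the 4 groups overlap.

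Among the carriers, SLC2A3 (chr12:7919230-7936187), the high-affinity glucose transporter GLUT3 best known from neurons, had signals of 13.49, 13.14 and 13.04 in non-induced MIO-M1-CTG(648) cultures, against 11.83, 11.70 and 11.80 in non-induced MIO-M1-CTG(0) cultures. Every MIO-M1-CTG(648) array was above every MIO-M1-CTG(0) array, a difference of 1.45 (SE 0.19, adjusted p = 0.000194), or 2.73-fold. SLC2A1, which encodes GLUT1, the widespread glucose transporter of barrier and glial cells, read 14.04, 14.14 and 13.98 in MIO-M1-CTG(648) and 13.70, 13.69 and 14.20 in MIO-M1-CTG(0) cultures. Its groups overlapped, and the difference of 0.19 was within the error (95% confidence interval -0.15 to 0.53).

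Of the 9 members from hexokinase to triosephosphate isomerase, GPI alone was past the threshold. GPI (chr19:34359718-34402413) interconverts glucose 6-phosphate and fructose 6-phosphate. It had signals of 15.20, 15.34 and 15.24 in non-induced MIO-M1-CTG(648) cultures and 13.72, 13.46 and 14.09 in non-induced MIO-M1-CTG(0) cultures, a difference of 1.50 (SE 0.17, adjusted p = 4.54e-05), or 2.84-fold. The lowest MIO-M1-CTG(648) array was thus more than 1 log2 unit above the highest MIO-M1-CTG(0) array. HK2, the inducible hexokinase, differed by -0.55 (adjusted p = 0.106) and PFKP, a phosphofructokinase isoform, by -0.45 (adjusted p = 0.0642), neither past the threshold, although the PFKP arrays of the lines did not overlap. HK1, the hexokinase found in most tissues, differed by -0.01, the other phosphofructokinases PFKL and PFKM by 0.19 and -0.17, and both aldolases, ALDOA and ALDOC, by 0.15 and 0.14.

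Of the 8 members from GAPDH to lactate dehydrogenase, PGK1 and PGAM1 were lower and LDHB was higher. PGK1 (chrX:78104248-78129295), which makes the first ATP of glycolysis, had signals of 14.60, 14.66 and 14.65 in non-induced MIO-M1-CTG(648) cultures, against 15.31, 15.40 and 15.34 in non-induced MIO-M1-CTG(0) cultures. The difference of -0.71 (SE 0.12, adjusted p = 0.00151) was far larger than the SD of 0.03 and 0.05 within the groups. PGAM1 (chr10:97426191-97433444), the phosphoglycerate mutase acting next, read 14.55, 14.34 and 14.15 in MIO-M1-CTG(648) and 14.88, 15.00 and 15.21 in MIO-M1-CTG(0) cultures, a difference of -0.68 (SE 0.16, adjusted p = 0.0115). A further probe set with the symbol PGAM1 differed by -0.71 and was also past the threshold, but its identifier places it on another chromosome than the gene, so it is not a second measurement of this locus. Genes of these enzymes have processed pseudogenes in the human genome, and whether the probes of either set read such copies was not tested.

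LDHB (chr12:21635342-21657842) encodes the heart-type subunit of lactate dehydrogenase, which favours the use of lactate, and LDHA the muscle-type subunit, a HIF target that favours its production. LDHB had signals of 16.53, 16.69 and 16.65 in non-induced MIO-M1-CTG(648) cultures and 16.05, 15.93 and 16.10 in non-induced MIO-M1-CTG(0) cultures. No arrays overlapped, and the difference was 0.60 (SE 0.12, adjusted p = 0.00570). LDHA read 17.50, 17.77 and 17.86 in MIO-M1-CTG(648) and 17.80, 17.79 and 17.89 in MIO-M1-CTG(0) cultures, a difference of -0.12 with a 95% confidence interval of -0.41 to 0.18. GAPDH, the reference gene of the RT-qPCR assays in the study, differed by 0.08 (-0.19 to 0.34). PKM, the pyruvate kinase, differed by -0.34 (adjusted p = 0.0901) with arrays that did not overlap, ENO1 by -0.19 and the dim ENO2 by 0.29. GAPDH, with a mean of 18.6 over the 12 arrays, lay near the highest signal of the data set, 19.62, and how far such bright probe sets can still show a difference was not tested.

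Among the regulators of flux, PDK3 and PFKFB3 moved apart. PDK3 (chrX:24465286-24550466), a kinase that inhibits the pyruvate dehydrogenase complex, had signals of 9.87, 10.18 and 10.27 in non-induced MIO-M1-CTG(648) cultures, against 8.11, 8.31 and 8.23 in non-induced MIO-M1-CTG(0) cultures. Its difference of 1.89 (SE 0.18, adjusted p = 1.32e-05), or 3.71-fold, was the most positive of all members. PDK1, the kinase of the same family best known as a HIF-1 target, differed by 0.30 (adjusted p = 0.314). PFKFB3 (chr10:6144921-6326637), whose product fructose 2,6-bisphosphate activates phosphofructokinase, read 8.98, 9.09 and 9.17 in MIO-M1-CTG(648) and 10.11, 9.74 and 10.34 in MIO-M1-CTG(0) cultures. Its difference was -0.98 (SE 0.18, adjusted p = 0.00274).

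Of the 6 other hypoxia-induced genes, 3 were lower and none was higher in non-induced MIO-M1-CTG(648) cultures. EGLN3 (chr14:33924227-33951074), the prolyl hydroxylase that HIF itself induces, had signals of 5.21, 5.23 and 5.12 in MIO-M1-CTG(648) and 7.32, 6.81 and 7.40 in MIO-M1-CTG(0) cultures, a difference of -1.99 (SE 0.24, adjusted p = 9.06e-05). In MIO-M1-CTG(648) cultures it lay just above a signal of 5. BNIP3 (chr10:131967684-131981923), a mitochondrial protein that promotes mitophagy, read 12.30, 12.15 and 12.27 in MIO-M1-CTG(648) and 13.46, 13.34 and 13.50 in MIO-M1-CTG(0) cultures, a difference of -1.19 (SE 0.12, adjusted p = 2.75e-05). NDRG1 (chr8:133237175-133297252), a stress- and differentiation-related gene induced by hypoxia, read 6.27, 6.37 and 5.97 in MIO-M1-CTG(648) cultures, against 7.24, 7.40 and 8.04 in MIO-M1-CTG(0) cultures. Its difference of -1.36 (SE 0.25, adjusted p = 0.00219) came with the widest spread of the 3 within the MIO-M1-CTG(0) group.

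The other hypoxia-induced members stayed within the error between the non-induced lines. ADM, the vasodilator peptide adrenomedullin, differed by 0.20, KDM3A, a histone demethylase, by 0.04 and ANKRD37 by 0.10. HIF1A, which encodes the oxygen-regulated subunit of HIF-1, had signals of 16.85, 16.89 and 16.97 in MIO-M1-CTG(648) and 16.91, 17.17 and 17.04 in MIO-M1-CTG(0) cultures. Its difference was -0.14 with a 95% confidence interval of -0.42 to 0.15, so a 2-fold difference in signal lies outside that interval. With a mean of 16.99 over the 12 arrays HIF1A is also bright, and how far its probe set can still show a difference in RNA was not tested.

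EGLN3 was measured by 3 probe sets, of which the other 2 were dim (means of 4.76 and 4.45 over the 12 arrays) and had differences of 0.37 and -0.28 between non-induced lines, not past the threshold. The values of EGLN3 given here therefore rest on 1 probe set. The mean over the 3 probe sets differed by -0.63 between the non-induced lines, still past the threshold, but by -0.28 between the Dox-induced lines, not past it. The 2 dim probe sets differed by -0.32 and -0.09 between Dox-induced and non-induced MIO-M1-CTG(648) cultures. In the interaction, the difference of the Dox effects between the lines, they gave -0.37 and 0.25, and the mean over the 3 probe sets was 0.35 and not past the threshold. ENO1 had a further, dimmer probe set (mean 11.4), which differed by -0.54 between the non-induced and by -0.67 between the Dox-induced lines, past the threshold in the second comparison only.

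Contrast B set Dox-induced MIO-M1-CTG(648) cultures against Dox-induced MIO-M1-CTG(0) cultures. Its log2 differences use none of the arrays of the comparison of non-induced cells, but the same 2 lines. Its SE and p-values rest on a spread fitted over all groups together, the non-induced ones included. Calls past the threshold in both comparisons are therefore not independent of each other. Past the threshold were 7 of the 29 members (24.1%), 5 higher and 2 lower, against 11.7% of all probe sets (6.34% higher and 5.33% lower) and 19.5% of those with a mean of 5 in a group. Arrays did not overlap for 10 members that were higher (34.5%, against 15.3% of all probe sets) and 7 that were lower (24.1%, against 14.6%). The median over the members was 0.08, beside 0.01 over all probe sets. Of these 7 members 6 were past the threshold in the same direction between the non-induced lines, that is 6 of the 10 found there. When genes that separate the non-induced lines are removed, as the study did for contrast B, ADM alone remains.

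**Figure D2:**
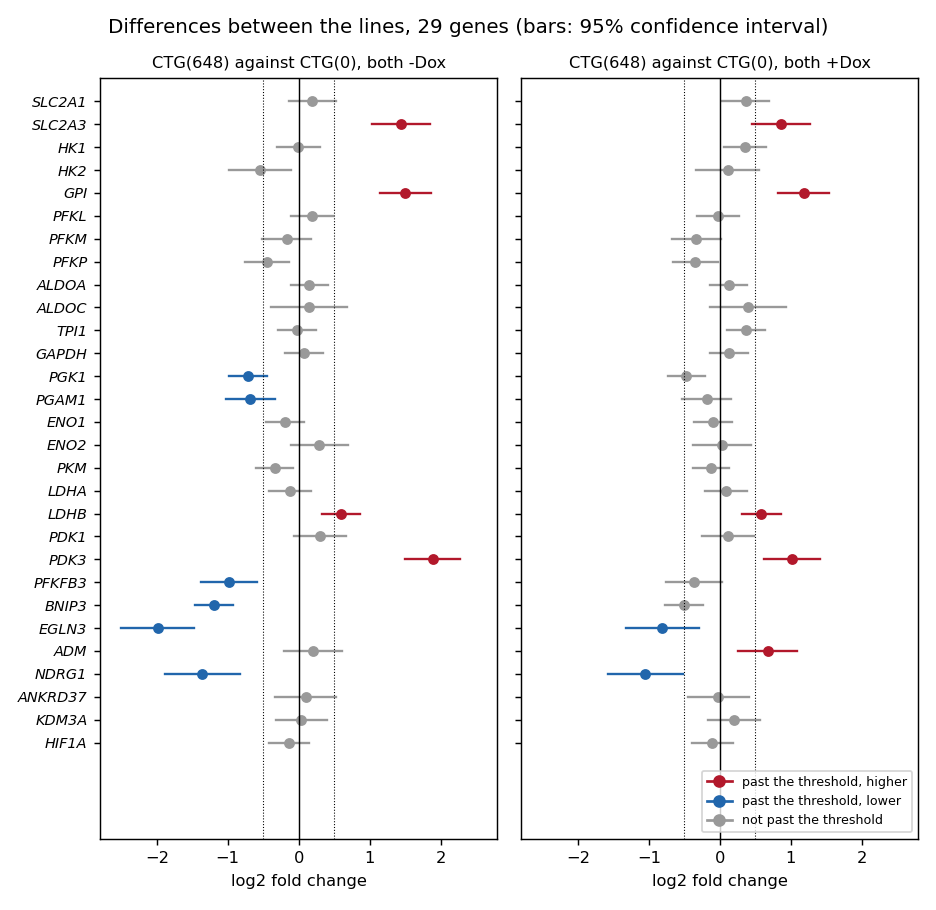
Log2 fold change (horizontal axes) of the 29 members between MIO-M1-CTG(648) and MIO-M1-CTG(0) cultures, non-induced on the left and Dox-induced on the right, with 95% confidence intervals as bars and dotted lines at 0.5 in either direction. GPI, PDK3, SLC2A3 and LDHB lie to the right and NDRG1 and EGLN3 to the left of 0 in both panels, with EGLN3 at -1.99 non-induced and -0.81 Dox-induced.

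GPI read 15.19, 14.98 and 15.19 in Dox-induced MIO-M1-CTG(648) cultures and 13.89, 13.84 and 14.09 in Dox-induced MIO-M1-CTG(0) cultures, a difference of 1.18 (SE 0.17, adjusted p = 0.000368). PDK3 read 9.57, 9.51 and 9.54 in MIO-M1-CTG(648) and 8.52, 8.16 and 8.89 in MIO-M1-CTG(0) cultures, a difference of 1.02 (SE 0.18, adjusted p = 0.00206). Both genes thus kept arrays that did not overlap between the lines. SLC2A3, at 12.94, 12.98 and 12.96 in MIO-M1-CTG(648) and 11.83, 11.91 and 12.56 in MIO-M1-CTG(0) cultures, differed by 0.86 (SE 0.19, adjusted p = 0.00840). Replicate 3 of the Dox-induced MIO-M1-CTG(0) cultures was nearest to the other line here and in PDK3, GPI and EGLN3.

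LDHB was nearly constant within each line, at 16.61, 16.62 and 16.61 in Dox-induced MIO-M1-CTG(648) cultures and 16.09, 16.02 and 15.97 in Dox-induced MIO-M1-CTG(0) cultures, and differed by 0.59 (SE 0.12, adjusted p = 0.00654). ADM (chr11:10305073-10307397) had signals of 9.57, 9.31 and 9.67 in MIO-M1-CTG(648), against 8.87, 8.79 and 8.87 in MIO-M1-CTG(0) cultures, a difference of 0.67 (SE 0.19, adjusted p = 0.0331). Its arrays did not overlap, unlike those of the non-induced lines, which read 8.88, 9.27 and 9.26 in MIO-M1-CTG(648) and 9.07, 8.52 and 9.22 in MIO-M1-CTG(0) cultures. The change of the ADM difference between these comparisons, 0.47, was not past the threshold (adjusted p = 0.579).

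On the lower side, NDRG1 read 6.41, 6.0 and 6.34 in Dox-induced MIO-M1-CTG(648) cultures and 7.06, 7.04 and 7.80 in Dox-induced MIO-M1-CTG(0) cultures, a difference of -1.05 (SE 0.25, adjusted p = 0.0119). EGLN3 read 5.72, 5.82 and 6.30 in MIO-M1-CTG(648) and 6.99, 7.07 and 6.21 in MIO-M1-CTG(0) cultures, a difference of -0.81 (SE 0.24, adjusted p = 0.0405). The highest MIO-M1-CTG(648) array of EGLN3 was above the lowest MIO-M1-CTG(0) array, so the groups overlapped. Without 1 array at a time the EGLN3 difference was between -1.08 (without replicate 3 of the Dox-induced MIO-M1-CTG(0) cultures) and -0.65 (without replicate 2 of the same group, not past the threshold), and it was past the threshold in 6 of 22 alternatives in the processing.

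BNIP3 and PGK1 fell short of the fold limit in contrast B although their arrays did not overlap. BNIP3, at 12.58, 12.60 and 12.70 in Dox-induced MIO-M1-CTG(648) and 13.10, 13.14 and 13.14 in Dox-induced MIO-M1-CTG(0) cultures, lay exactly at the limit with -0.50 (SE 0.12, adjusted p = 0.0171). PGK1, at 14.80, 14.65 and 14.63 in MIO-M1-CTG(648) and 15.13, 15.15 and 15.21 in MIO-M1-CTG(0) cultures, differed by -0.47 (adjusted p = 0.0220). PFKFB3 and PGAM1 had overlapping arrays in this comparison, with differences of -0.37 and -0.18. TPI1, the triosephosphate isomerase, SLC2A1 and HK1 were each above the other line on every array by 0.37, 0.37 and 0.36, below the fold limit. HIF1A differed by -0.10 and GAPDH by 0.13.

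To analyze the response to induction of the expanded repeat, Dox-induced MIO-M1-CTG(648) cultures were compared with non-induced MIO-M1-CTG(648) cultures, which is contrast A. None of the 29 members was past the threshold in limma, against 2.42% of all probe sets, nor in the methods' t-test at the same limits. At an unadjusted p under 0.05 in limma 2 members were higher, EGLN3 and BNIP3, and 1 was lower, PDK3. These 3 of 29 members stand against 3897 of 36176 probe sets (2036 higher and 1861 lower), a similar share. Arrays did not overlap for 9 members that were higher (31.0%, against 9.04% of all probe sets) and 4 that were lower (13.8%, against 7.92%). These shares of all probe sets include dim ones, and the share among probe sets as bright as the members was not counted. The median over the members was 0.06, beside 0.01 over all probe sets.

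**Figure D3:**
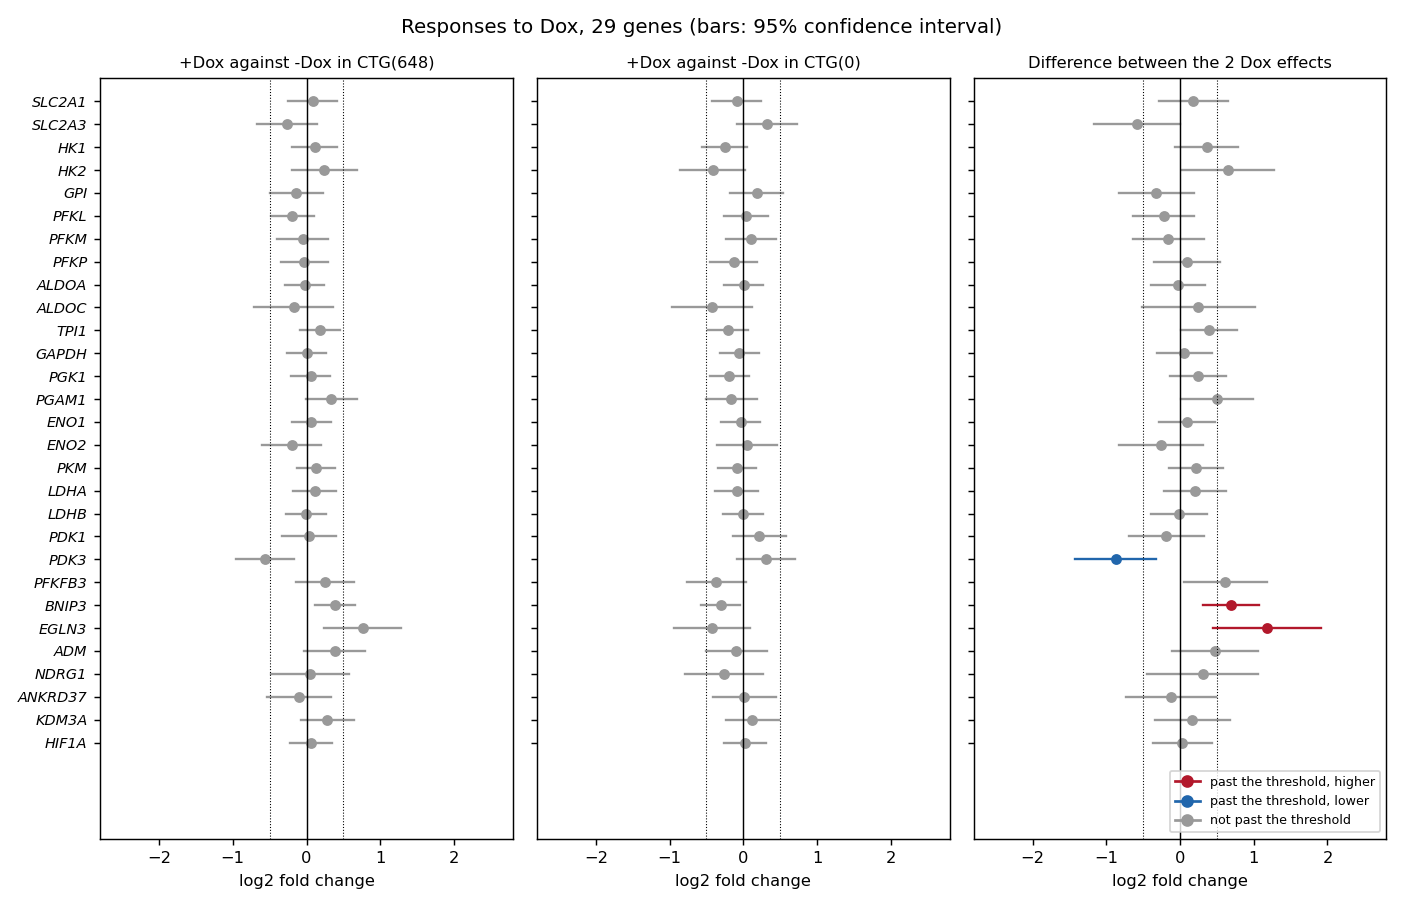
Log2 fold change (horizontal axes) of the 29 members with Dox in MIO-M1-CTG(648) cultures (left) and in MIO-M1-CTG(0) cultures (middle), and the difference between both Dox effects (right), with 95% confidence intervals as bars and dotted lines at 0.5 in either direction. No member is past the threshold in the left or middle panel, and on the right EGLN3 at 1.18, BNIP3 at 0.69 and PDK3 at -0.87 are past it.

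EGLN3 read 5.72, 5.82 and 6.30 in Dox-induced and 5.21, 5.23 and 5.12 in non-induced MIO-M1-CTG(648) cultures. All Dox-induced arrays were higher, and the difference was 0.76 (SE 0.24, adjusted p = 0.227). BNIP3 read 12.58, 12.60 and 12.70 in Dox-induced and 12.30, 12.15 and 12.27 in non-induced cells, a difference of 0.39 (SE 0.12, adjusted p = 0.237). PDK3 went the other way, with 9.57, 9.51 and 9.54 in Dox-induced and 9.87, 10.18 and 10.27 in non-induced cells, a difference of -0.57 (SE 0.18, adjusted p = 0.234).

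The other members whose Dox-induced arrays were all higher were ADM (0.38), PGAM1 (0.34), KDM3A (0.28), PFKFB3 (0.25), TPI1 (0.18), PKM (0.13) and ENO1 (0.06). Those whose arrays were all lower were SLC2A3 (-0.26), PFKL (-0.19) and GPI (-0.14). These differences were below the fold limit, each with an unadjusted p over 0.05 in limma. GAPDH was level, with 18.63, 18.62 and 18.60 in Dox-induced and 18.53, 18.62 and 18.69 in non-induced MIO-M1-CTG(648) cultures, a difference of 0.00 (95% confidence interval -0.26 to 0.27). HIF1A, at 16.99, 17.00 and 16.89 in Dox-induced and 16.85, 16.89 and 16.97 in non-induced cells, differed by 0.06 (-0.23 to 0.34).

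Dox in MIO-M1-CTG(0) cultures, which lack the expansion, showed none of the members past the threshold in limma, against 1.18% of all probe sets, nor in the methods' t-test. BNIP3 was the only member at an unadjusted p under 0.05, with 13.10, 13.14 and 13.14 in Dox-induced and 13.46, 13.34 and 13.50 in non-induced cells, a difference of -0.31 (adjusted p = 0.537). Over all 36176 probe sets 3035 had such an unadjusted p in limma. The Dox-induced arrays were all lower for 4 members (13.8%, against 6.42% of all probe sets), BNIP3, HK1, TPI1 and PGK1, and all higher for 0 members (against 6.51%). EGLN3, at 6.99, 7.07 and 6.21 in Dox-induced and 7.32, 6.81 and 7.40 in non-induced cells, differed by -0.42 (adjusted p = 0.694) with overlapping arrays. PDK3, at 8.52, 8.16 and 8.89 in Dox-induced and 8.11, 8.31 and 8.23 in non-induced cells, differed by 0.31 (adjusted p = 0.705). The median over the members was -0.08, beside -0.01 over all probe sets.

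The interaction, the Dox effect in MIO-M1-CTG(648) minus that in MIO-M1-CTG(0) cultures, was past the threshold for 3 of the 29 members, against 2.32% of all probe sets (1.10% higher and 1.22% lower). It was positive for EGLN3 (1.18, SE 0.34, adjusted p = 0.192) and BNIP3 (0.69, SE 0.18, adjusted p = 0.138) and negative for PDK3 (-0.87, SE 0.26, adjusted p = 0.208). None of these 3 had an adjusted p under 0.05 (0.47% of all probe sets had, beyond the same fold), and over 20 alternatives in the processing BNIP3 was past the threshold in 17, EGLN3 in 9 and PDK3 in 6. For each of them the Dox effects in the 2 lines had opposite signs, 0.76 with the expanded repeat and -0.42 without it for EGLN3, 0.39 and -0.31 for BNIP3, and -0.57 and 0.31 for PDK3. In MIO-M1-CTG(0) cultures the effects for EGLN3 and PDK3 came with overlapping arrays and an unadjusted p over 0.05 in limma. The measured differences between the lines were smaller in size with Dox (EGLN3 -0.81, BNIP3 -0.50, PDK3 1.02) than without it (-1.99, -1.19 and 1.89). Since the interaction is also the difference between these comparisons, this is the same measurement in other terms. The other 26 members were not past the threshold, with HK2 (0.66), PFKFB3 (0.62), PGAM1 (0.50), TPI1 (0.39) and SLC2A3 (-0.59) at an unadjusted p under 0.05 in limma. In all, 8 of the 29 members had such a p in the interaction, against 3822 of 36176 probe sets.

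**Figure D4:**
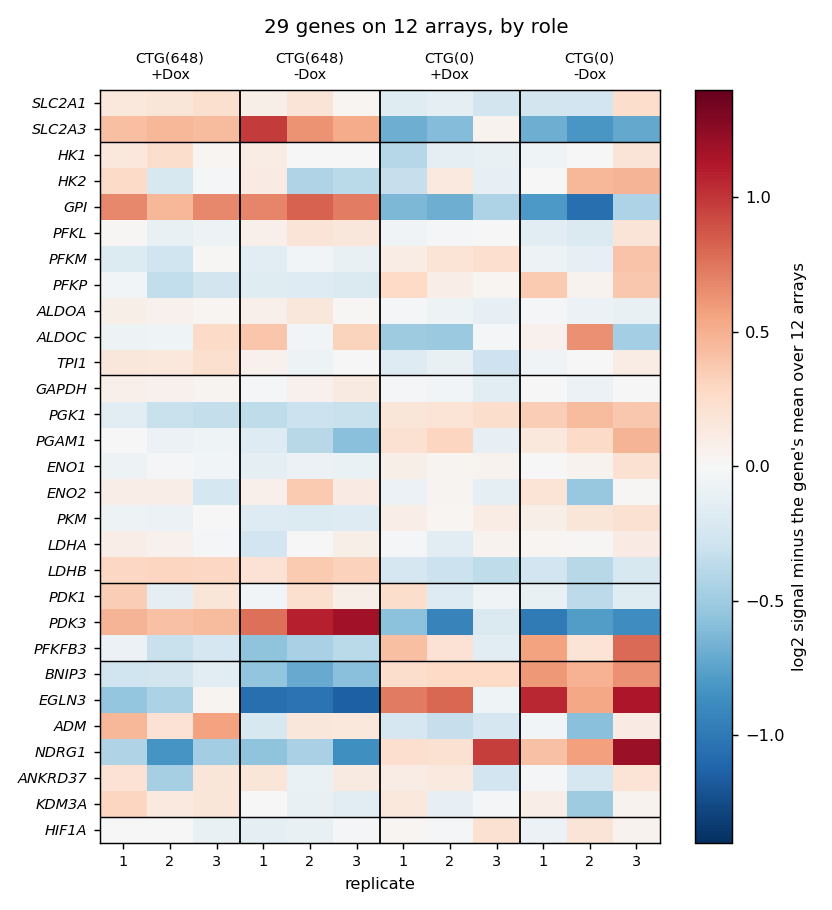
Log2 signal of the 29 members minus the mean of the gene over the 12 arrays (colour scale), with genes grouped by role down the page and the 3 replicates of each group across it. Rows of GPI, SLC2A3, LDHB and PDK3 are red on all MIO-M1-CTG(648) arrays, rows of PGK1, BNIP3 and NDRG1 are blue there, and replicate 3 of Dox-induced MIO-M1-CTG(0) cultures stands out from its group for SLC2A3, EGLN3 and NDRG1.

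Of the further genes of sugar, pyruvate and lactate handling, those past the threshold between the lines were mostly higher in MIO-M1-CTG(648) cultures. Of 38 measured of 41 listed, 11 were higher and 2 lower in non-induced MIO-M1-CTG(648) than in non-induced MIO-M1-CTG(0) cultures, and 9 were higher and 0 lower between the Dox-induced lines, where 2 more were lower at an unadjusted p under 0.05 in limma. Over all probe sets 5.63% were higher and 6.11% lower without Dox, and 6.34% higher and 5.33% lower with it. At an unadjusted p under 0.05 in limma 4265 of 36176 probe sets were lower between the Dox-induced lines. Of all 38 genes, past the threshold or not, 22 were above 0 and 15 below it between the non-induced lines. Among the higher genes PDHA1, a catalytic subunit of the pyruvate dehydrogenase complex, was higher by 1.10 non-induced (adjusted p = 0.000391) and by 1.32 Dox-induced (adjusted p = 0.000105). DLAT, its acetyltransferase core, was higher by 0.93 and 1.17 and MPC1, a subunit of the mitochondrial pyruvate carrier, by 0.94 and 0.81. PDHB and PDHX of the same complex were higher by 0.60 and 0.93 between the Dox-induced lines, while DLD, named here after its values were seen, differed by -0.19 and was not past the threshold. PDHA1, PDHB, PDHX and DLAT were thus higher in Dox-induced MIO-M1-CTG(648) cultures together with PDK3, a kinase that inhibits the complex.

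PDHA1 had signals of 13.21, 13.22 and 13.13 in non-induced MIO-M1-CTG(648) cultures, against 11.85, 11.98 and 12.42 in non-induced MIO-M1-CTG(0) cultures, without overlap. Of the carriers, SLC2A12 and SLC2A10, members of the glucose transporter family, were higher by 1.92 and 1.06 between the non-induced lines and SLC16A7, the monocarboxylate transporter MCT2, by 1.04. PGAM5, a mitochondrial phosphatase named for its likeness to the mutases, had a difference of -0.90 and PFKFB1 of -0.70, the only lower genes of the list, named after their values were seen. With Dox in MIO-M1-CTG(648) cultures SLC2A12 (-0.96) and SLC2A10 (-0.67) were the 2 genes of this list past the threshold, both lower, and none was past it after Dox in MIO-M1-CTG(0) cultures, where 2 were higher at an unadjusted p under 0.05 in limma. The interaction was past the threshold for 3, SLC2A12 (-1.42), SLC2A10 (-0.97) and SLC16A7 (-0.79), none with an adjusted p under 0.05. Over all probe sets 2.42% were past the threshold with Dox in MIO-M1-CTG(648), 1.18% with Dox in MIO-M1-CTG(0) cultures and 2.32% in the interaction. With Dox in MIO-M1-CTG(0) cultures 1466 of 36176 probe sets were higher at an unadjusted p under 0.05 in limma. The median of the list was 0.14 between the non-induced and 0.17 between the Dox-induced lines, beside 0.00 and 0.01 over all probe sets.

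Further hypoxia and HIF pathway genes went both ways between the lines. Of 44 measured of 49 listed, 9 were higher and 9 lower between the non-induced lines, and 8 higher and 10 lower between the Dox-induced lines. These are 18 of 44 in each comparison, against 11.7% of all probe sets in each, or 20.1% and 19.5% of those with a mean of 5 in a group. EPAS1, which encodes HIF-2α, the other main oxygen-regulated subunit, had signals of 14.90, 15.11 and 15.29 in non-induced MIO-M1-CTG(648) cultures, against 12.73, 12.57 and 12.75 in non-induced MIO-M1-CTG(0) cultures. It was higher by 2.42 (SE 0.15, adjusted p = 2.42e-07) and by 2.47 between the Dox-induced lines, whereas HIF1A differed by -0.14 and -0.10. BHLHE41, a hypoxia-inducible repressor, was higher by 2.10 and 2.03 and INSIG2, a regulator of sterol synthesis, by 1.47 and 0.98.

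AK4, a mitochondrial adenylate kinase, had signals of 7.64, 7.47 and 7.20 in non-induced MIO-M1-CTG(648) and 10.35, 10.57 and 10.91 in non-induced MIO-M1-CTG(0) cultures, a difference of -3.17 (adjusted p = 1.07e-06), and a difference of -2.52 between the Dox-induced lines. DDIT4, the mTORC1 inhibitor REDD1, was lower too, with -2.56 non-induced and -3.55 Dox-induced. P4HA1, a collagen prolyl hydroxylase, was lower in contrast B, with a difference of -0.86. With Dox in MIO-M1-CTG(648) cultures HMOX1, the heme oxygenase, was higher by 1.25 (adjusted p = 0.0698), and VLDLR (-0.85) and CA12 (-0.84) were lower. With Dox in MIO-M1-CTG(0) cultures AK4 alone was past the threshold, with a lower signal (-1.22). These were 3 of 44 genes with Dox in MIO-M1-CTG(648) and 1 of 44 in MIO-M1-CTG(0) cultures. Over all probe sets the shares were 2.42% and 1.18%.

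HMOX1 had signals of 7.55, 6.89 and 7.37 in Dox-induced and 6.24, 5.58 and 6.25 in non-induced MIO-M1-CTG(648) cultures, and of 7.03, 7.31 and 7.03 in Dox-induced and 7.94, 7.50 and 8.63 in non-induced MIO-M1-CTG(0) cultures. It was thus higher with Dox on every array of the line with the repeat and lower on every array of the line without it. Its interaction of 2.15 (SE 0.39, adjusted p = 0.0282) was the only one of the 2 further lists with an adjusted p under 0.05. VLDLR (-1.10) and STC2 (0.99) were past the threshold in the interaction without reaching that adjusted p. In all, 3 of the 44 genes were past the threshold in the interaction, against 2.32% of all probe sets. The median of the list was -0.11 between the non-induced lines and 0.04 in contrast B.

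In the pentose phosphate pathway, which branches off at glucose 6-phosphate, TKT and TALDO1 were higher by 0.96 and 0.86 between the non-induced lines. RPIA was lower (-1.09), so 3 of 7 measured genes were past the threshold, against 11.7% of all probe sets. Between the Dox-induced lines TKT (0.95) and TALDO1 (0.88) were again higher and RPIA (-1.14), PGLS (-0.92) and H6PD (-0.67) lower. These were 5 of 7 genes, again against 11.7% of all probe sets. Neither Dox comparison had a gene of this pathway past the threshold in limma, with 1 lower in MIO-M1-CTG(648) and 1 higher in MIO-M1-CTG(0) cultures at an unadjusted p under 0.05. Over all 36176 probe sets 1861 were lower with Dox in MIO-M1-CTG(648) and 1466 higher with Dox in MIO-M1-CTG(0) cultures at that p.

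Markers of other cell types and states also moved between the lines. The mean signal over 11 fibroblast and pericyte genes was 10.2 to 10.4 in Dox-induced and 10.9 to 11.2 in non-induced MIO-M1-CTG(648) arrays, against 12.6 to 13.0 in Dox-induced and 12.5 to 12.7 in non-induced MIO-M1-CTG(0) arrays. A single extreme gene weighs heavily in such a mean. The most negative difference of the list was -9.24 between the non-induced and -8.92 between the Dox-induced lines, beside medians of -0.67 and -1.60. Of the 11 genes 10 had a group mean of 5 or more in every group. Past the threshold were 7 of the 11 between non-induced lines (2 higher and 5 lower), 8 in contrast B (1 higher and 7 lower) and 5 in contrast A, all lower. For this and the following lists, 11.7% of all probe sets were past it in each comparison of the lines. Among those with a mean of 5 in a group the shares were 20.1% non-induced and 19.5% Dox-induced. In contrast A 2.42% of all probe sets were past it. Of 17 measured Müller glia markers 10 had a group mean of 5 or more in every group and 6 in none, and 5 were higher and 2 lower between the non-induced lines. The 8 proliferation genes had a mean signal of 13.5 to 13.7 in non-induced MIO-M1-CTG(648) and 13.7 to 13.9 in non-induced MIO-M1-CTG(0) arrays. Between these groups 1 proliferation gene was past the threshold, AURKB (-0.92). In contrast A 0 were past it and 1 was higher at an unadjusted p under 0.05 in limma, against 2036 of 36176 probe sets. In contrast B 3 of the 8 proliferation genes were past the threshold, CCNB1 (0.78) and BUB1 (0.62) higher and AURKB (-0.66) lower, all named after their values were seen. Photoreceptor markers were below 5 in every group for 6 of 7 genes. A mean of 5 or more in every group was reached by 3 of 7 microglia and macrophage markers. The same held for 2 of 7 retinal pigment epithelium and 1 of 6 endothelial markers. Between the non-induced lines 2, 2 and 1 genes of these 3 lists were past the threshold, and 0 of the photoreceptor markers. What part these differences have in those of the glycolytic and hypoxia genes was not tested.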

How the data were processed

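The deposited table gives log2 signals of Clariom D Human arrays to 2 decimals. For it the authors background-corrected the intensities by RMA and applied quantile normalization, and the submitters' processing notes name RMA and hg38. Software versions are not given in the sources used, and the values were not normalized again. Of the 135750 probe sets, 36176 carry 1 gene symbol in the platform annotation, 1119 carry several and 98455 none, and only the first were tested.

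All 12 arrays were fitted as 4 groups with limma 3.58.1 under R 4.3.3 (lmFit, contrasts and eBayes, 8 residual and 5.11 prior degrees of freedom), with contrasts A and B, Dox in MIO-M1-CTG(0), the non-induced lines and the interaction. The limits on fold change and p follow the study's methods, which also name a false discovery rate correction; reading p as unadjusted is a choice made here, and Benjamini-Hochberg adjusted values are given beside it. A log2 fold change was compared with the limit after rounding to remove floating-point error. The precision is limited by 3 arrays per group. All 29 symbols were found in the RefSeq gene table (GRCh38.p14), which gave the gene positions.

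The members and gene lists were chosen with earlier results of these data known, so no list was tested as a set. Members past the threshold were named, with HIF1A, GAPDH and related isoforms, and up to 6 genes per further list and comparison by smallest p. Further members not past the threshold were named after their values were seen.

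The fit was tested on simulated data of this design. Alternatives were the adjusted p, a fold limit of 1 (log2), a trend of the variance with intensity, array weights, fits with only the groups compared, the methods' t-test with these limits, the replicate number as a block, both normalizations, a signal filter, the mean over probe sets and each array left out in turn. Moderation of the spread over all probe sets was added after seeing the data.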

Additional observations from a re-analysis of the deposited data

Results flagged for a closer look

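The Dox effect differed between the lines past the threshold for 3 members, by the interaction term of the limma fit over all 12 arrays. EGLN3 differed by 1.18 (adjusted p = 0.192), with a Dox effect of 0.76 in MIO-M1-CTG(648) but -0.42 in MIO-M1-CTG(0) cultures. BNIP3 differed by 0.69 (adjusted p = 0.138), with 0.39 in MIO-M1-CTG(648) but -0.31 in MIO-M1-CTG(0) cultures, and its Dox-induced arrays lay all above the non-induced ones in the line with the repeat and all below them in the line without it. PDK3 differed by -0.87 (adjusted p = 0.208), with -0.57 in MIO-M1-CTG(648) but 0.31 in MIO-M1-CTG(0) cultures. Without 1 array at a time the difference was between 0.91 and 1.36 for EGLN3, between 0.65 and 0.74 for BNIP3 and between -1.05 and -0.69 for PDK3. For EGLN3 the mean over its 3 probe sets gave 0.35, not past the threshold, and the value of 1.18 comes from the brightest of them.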

How the results depend on the processing

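No result changed direction under any of the alternatives run. Between the non-induced lines the count of 10 members was 6 at a log2 fold change over 1, from 9 to 11 without 1 array and 7 or 10 elsewhere. Contrast B (7 members) gave 3 at a log2 fold change over 1 and 3 by the methods' t-test, 5 to 7 without 1 array, and 5 higher with 1 lower, in place of 2 lower, after either further normalization; EGLN3 was past the threshold in 6 of 22 alternatives there and ADM in 16. Contrast A (0 members) gave 1 with an intensity trend and 1 with array weights (PDK3 in both), and 1 with its groups alone (EGLN3). Without 1 array contrast A gave 0 to 2, namely 1 without replicate 2 of Dox-induced MIO-M1-CTG(0) or replicate 1 of non-induced MIO-M1-CTG(648) cultures and 2 without replicate 3 of Dox-induced MIO-M1-CTG(0) cultures. Its median of 0.06 was 0.12 after quantile normalization once more. Dox in MIO-M1-CTG(0) cultures gave 0 throughout, also without 1 array. The interaction (3 members) gave 0 with adjusted p-values, 1 at a log2 fold change over 1 and 0 with the spread moderated over all probe sets, an alternative added after seeing the data, and 2 higher with 0 lower after either further normalization. Without 1 array it gave 0 to 3, with 0 without replicate 2 of non-induced or replicate 3 of Dox-induced MIO-M1-CTG(648) cultures, and 1 without replicates 1 or 3 of non-induced MIO-M1-CTG(0), replicate 3 of Dox-induced MIO-M1-CTG(0), replicate 3 of non-induced or replicate 2 of Dox-induced MIO-M1-CTG(648) cultures. Over the members past the threshold, 374 of 434 values under an alternative kept their side of it and 60 lost it. Fits with only the groups compared and the methods' t-test give no interaction. Causes were not tested.

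The labels give the groups the same replicate numbers, but arrays of the same number did not deviate together (correlation of deviations from the group means -0.13 to 0.11 over 18 pairs, against -0.19 to 0.20 over 36 pairs of unlike numbers). With the replicate number as a block, 10 members were past the threshold between non-induced lines, 6 in contrast B, 0 in either Dox comparison and 1 in the interaction (BNIP3).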
